A study of Rattus norvegicus with 9 samples.

Results

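Cholesterol in the brain is made locally, passed between cells on apolipoprotein particles and exported by membrane transporters, and 8 genes of this cycle were followed in rat brain after middle cerebral artery occlusion (MCAO), a surgical model of stroke. Hmgcs1, Idi1, Fdps, Sqle, Insig1 and Aacs stood for synthesis, and Apoe and Abca1 for transport and export. The genes were taken by symbol from a table with 12609 symbols, all transcript rows of a symbol being added together, and all 8 were found and passed the filter on low values. Values were in TPM, the relative abundance of a transcript within its library. TPM is corrected for transcript length, so levels can be compared between genes. Between libraries, TPM is a share of a fixed total, so a shift in other genes also moves it.

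The study compared 3 groups of 3 libraries, all labelled as rat brain. Rats of the IR+NMN group (ischemia reperfusion with nicotinamide mononucleotide, a precursor of the coenzyme NAD) had MCAO and were injected with NMN at 100 mg/kg in saline. Rats of the IR group had MCAO and carry the treatment label PBS, and the Sham group, also labelled PBS, had the surgery with no occlusion. The NMN vehicle thus differs by label from that of the other groups, and IR+NMN and IR share the occlusion. Strain, age, sex, brain region, time after occlusion and the timing of the injection were not given in the sources used here. Amplification used Smart-Seq2. The labels do not say whether the libraries are separate animals, so the p-values measure only how far these libraries vary, and that variation may be technical.

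Synthesis runs from acetyl-CoA to HMG-CoA and mevalonate, then to isoprenoids, squalene and finally sterols. When sterols are scarce in the endoplasmic reticulum, SREBP transcription factors are released to the nucleus and raise transcription of these enzymes, and when sterols are abundant INSIG proteins hold SREBP back. Astrocytes are the main source of ApoE in the adult brain, and ABCA1 loads cholesterol and phospholipid onto it, a step under the control of liver X receptors (LXR), which sense oxysterols.

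The promoters of 4 of the genes are given because these controls act there: Hmgcs1 and Insig1 had the lowest changes of the synthesis genes in both MCAO groups relative to Sham, Fdps had changes near 0 or above, and Abca1 is the exporter. The windows cover 250 bases before and 50 bases after the annotated start, are written 5′ to 3′ on the gene's strand, and come from RefSeq on the GRCr8 assembly. Capitals mark matches, on either strand, to CACNCCAC (a sterol regulatory element core), CCAAT (the box bound by NF-Y) or GGGCGG (the Sp1 box).
Hmgcs1, chr2:53382054-53382353, plus strand: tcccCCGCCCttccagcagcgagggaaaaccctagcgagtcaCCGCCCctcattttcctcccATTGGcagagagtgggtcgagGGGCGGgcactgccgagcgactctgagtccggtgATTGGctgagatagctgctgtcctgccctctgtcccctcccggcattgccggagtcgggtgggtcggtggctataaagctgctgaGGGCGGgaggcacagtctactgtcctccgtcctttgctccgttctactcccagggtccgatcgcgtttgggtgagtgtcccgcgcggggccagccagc
Insig1, chr4:8057720-8058019, minus strand: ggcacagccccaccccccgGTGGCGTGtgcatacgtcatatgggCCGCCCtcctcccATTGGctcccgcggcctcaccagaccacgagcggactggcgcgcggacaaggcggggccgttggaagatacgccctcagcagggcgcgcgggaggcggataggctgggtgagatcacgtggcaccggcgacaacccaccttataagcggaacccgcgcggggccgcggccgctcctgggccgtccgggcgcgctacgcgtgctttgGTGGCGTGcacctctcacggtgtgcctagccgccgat
Fdps, chr2:176804767-176805066, minus strand: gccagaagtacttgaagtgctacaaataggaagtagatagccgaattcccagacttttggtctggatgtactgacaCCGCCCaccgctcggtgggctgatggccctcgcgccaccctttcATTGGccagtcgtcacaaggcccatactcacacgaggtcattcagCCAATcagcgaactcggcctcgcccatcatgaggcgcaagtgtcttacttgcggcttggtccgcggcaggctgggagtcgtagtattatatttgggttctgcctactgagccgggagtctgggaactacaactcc
Abca1, chr5:72596424-72596723, minus strand: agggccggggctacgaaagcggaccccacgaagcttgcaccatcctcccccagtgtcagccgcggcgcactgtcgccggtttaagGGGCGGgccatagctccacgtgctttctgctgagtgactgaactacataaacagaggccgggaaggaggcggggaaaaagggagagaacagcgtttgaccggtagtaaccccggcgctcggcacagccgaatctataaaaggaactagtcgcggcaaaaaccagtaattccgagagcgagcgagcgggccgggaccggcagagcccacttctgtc
The Hmgcs1 window held 2 CCAAT and 4 GGGCGG matches, and the Insig1 window held 2 CACNCCAC, 1 CCAAT and 1 GGGCGG match. Fdps had 2 CCAAT and 1 GGGCGG match, and Abca1 had 1 GGGCGG match. No matches overlapped. The table held promoters for 7 of the 8 genes, Sqle being absent, and Apoe had 3 windows. Idi1 had 2 CCAAT matches, Aacs had none of the motifs, and 2 of the 3 Apoe windows, which overlap each other, held 1 CCAAT and 2 GGGCGG matches each. Among 33469 rat windows of the same length, 5.8% held CACNCCAC, 37.5% held CCAAT and 33.1% held GGGCGG. A direct repeat of AGGTCA with a spacer of 4 bases, the LXR consensus, was in 0.00598% of all windows and in none of the windows of these genes. A match describes letters only, and nothing here measured binding.

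In the libraries as a whole, 9741 to 10120 genes reached 1 TPM, and ribosomal protein genes took 7.71% to 12.2% of TPM in IR+NMN, 6.26% to 9.19% in IR and 5.79% to 7.26% in Sham. The depth in reads is unknown, because TPM does not keep it. Over the 10180 genes tested, limma gave 116 genes higher and 535 lower in IR against Sham, 234 higher and 6 lower in IR+NMN against IR, and 429 higher and 624 lower in IR+NMN against Sham, at an adjusted p (Benjamini-Hochberg) under 0.05. After quantile normalization the splits were 290 higher and 292 lower, 6 higher and 1 lower, and 717 higher and 692 lower. With median-of-ratios scaling they were 276 and 285, 70 and 3, and 686 and 595, higher first. Over all genes the median log2 change was -0.21, 0.04 and -0.14 in these contrasts, and changes are also given below relative to it. IR and IR+NMN were each set against the same Sham libraries, and IR stands in 2 of the contrasts.

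Relative to Sham, the calls fell on the export side, and none of the 6 synthesis genes passed the test. Abca1 fell in IR against Sham, where 6.39% of all genes passed, and in IR+NMN against Sham, where 10.3% passed and Apoe fell as well. The synthesis genes split: Hmgcs1 and Insig1 had the lowest changes, outside the threshold, Sqle and Aacs lay lower with wide intervals, and Idi1 and Fdps had changes near 0. Between IR+NMN and IR none of the 8 genes passed, beside 2.36% of all genes.

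**Figure D1:**
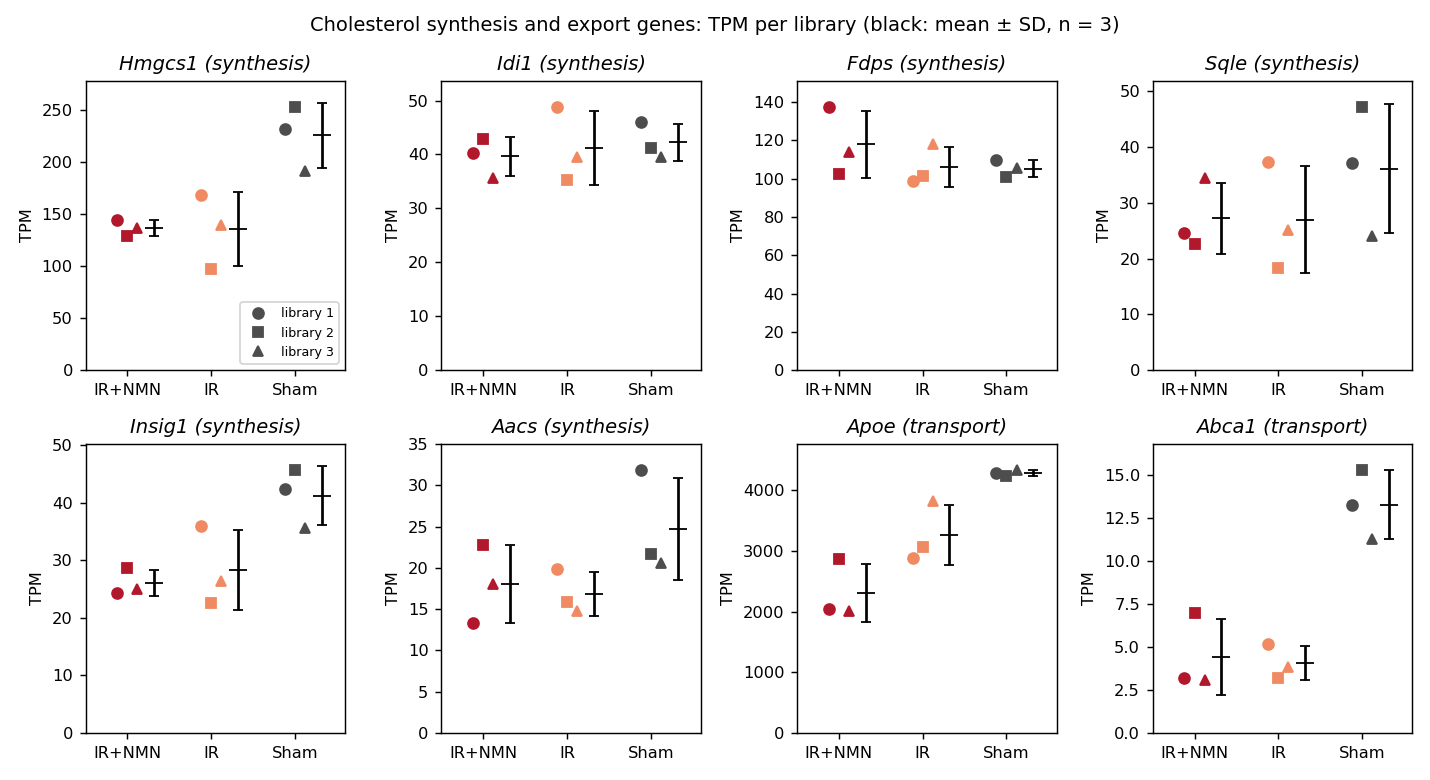
TPM of each gene (vertical axes, from 0) in the 3 libraries of IR+NMN, IR and Sham, with the mean and SD in black. All MCAO libraries lie below all Sham libraries for Hmgcs1, Apoe and Abca1, while Idi1 and Fdps overlap throughout.

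Hmgcs1 encodes the cytosolic HMG-CoA synthase, which condenses acetoacetyl-CoA and acetyl-CoA. Its level was 144, 129 and 137 TPM in IR+NMN libraries, 168, 97.6 and 140 TPM in IR libraries, and 232, 252 and 192 TPM in Sham libraries. Every MCAO library lay below every Sham library, and IR+NMN and IR overlapped. The means were 137 ± 7.56 TPM in IR+NMN, 135 ± 35.6 TPM in IR and 225 ± 30.9 TPM in Sham (SD, n = 3 each). The log2 change was -0.76 (SE 0.19) in IR against Sham, with an adjusted p of 0.0526 by limma, and -0.71 (SE 0.19) in IR+NMN against Sham, with an adjusted p of 0.0505. Both narrowly missed the threshold. Relative to the median of all genes the log2 changes were -0.55 and -0.57. The symbol has 5 transcript rows, of which the highest held 70.1% of its TPM, and in all 5 each MCAO group lay below Sham with no overlap. The third row averaged 8.02 ± 2.6 TPM in IR+NMN, 6.31 ± 3.34 TPM in IR and 23.9 ± 5.59 TPM in Sham (SD, n = 3 each).

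Whether Hmgcs1 passed depended on single libraries and on scaling. In IR against Sham it passed without IR 1 (adjusted p = 0.0275 by limma) and without IR+NMN 2 (0.0494). In IR+NMN against Sham it passed without IR 1 (0.0303) and without IR 2 (0.0263), and after quantile normalization (0.0413). IR 1 had the highest Hmgcs1 level of its group and IR 2 the lowest.

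Idi1 encodes isopentenyl diphosphate isomerase, which interconverts the building blocks of isoprenoids. It was at 40.3, 42.9 and 35.6 TPM in IR+NMN libraries, 48.7, 35.3 and 39.5 TPM in IR libraries, and 46.0, 41.1 and 39.5 TPM in Sham libraries. The 3 groups overlapped. The log2 change was -0.04 in IR against Sham (95% interval -0.37 to 0.28) and -0.09 in IR+NMN against Sham (-0.41 to 0.23), and both signs turned under quantile normalization and median-of-ratios scaling. Its top row held 45.8% of the TPM.

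Fdps encodes farnesyl diphosphate synthase, the branch point to squalene and protein prenylation. It was at 137, 102 and 114 TPM in IR+NMN libraries, 98.5, 102 and 118 TPM in IR libraries, and 110, 101 and 105 TPM in Sham libraries. The groups overlapped, and IR+NMN 1 held the highest value. The log2 change was 0.01 in IR against Sham (95% interval -0.29 to 0.30) and 0.15 in IR+NMN against Sham (-0.15 to 0.45). Of its 2 rows above 1 TPM on average, the second was at 38.4, 46.3 and 43.9 TPM in IR+NMN libraries and at 26.7, 19.5 and 27.0 TPM in Sham libraries, with no overlap. With only the highest row counted, the sign of Fdps turned in both contrasts against Sham.

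Sqle encodes squalene epoxidase, which commits squalene to sterols. It was at 24.5, 22.6 and 34.5 TPM in IR+NMN libraries, 37.3, 18.4 and 25.2 TPM in IR libraries, and 37.1, 47.1 and 24.0 TPM in Sham libraries. All 3 groups overlapped, since Sham 3 lay among the MCAO libraries. Its log2 change was -0.41 in IR against Sham (95% interval -1.11 to 0.28, adjusted p = 0.387 by limma) and -0.37 in IR+NMN against Sham (-1.06 to 0.32, adjusted p = 0.437). With an SE of 0.31, Sqle was the least precisely measured of the 8 genes.

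Insig1 encodes the membrane protein that retains SREBP when sterols are plentiful, and is itself an SREBP target. It was at 24.4, 28.6 and 25.1 TPM in IR+NMN libraries, 35.9, 22.6 and 26.5 TPM in IR libraries, and 42.5, 45.7 and 35.6 TPM in Sham libraries. IR+NMN did not overlap Sham, whereas IR 1 lay just above Sham 3. The log2 change was -0.54 (SE 0.18) in IR against Sham, with an adjusted p of 0.0912 by limma, and -0.64 (SE 0.18) in IR+NMN against Sham, with an adjusted p of 0.0521. Without IR 1 the change passed in IR against Sham (adjusted p = 0.0323 by limma) and in IR+NMN against Sham (0.0243). It also passed in IR+NMN against Sham without IR+NMN 2 (0.0394), after quantile normalization (0.0258) and with median-of-ratios scaling (0.0286). The symbol has 1 row, so no sum over transcripts enters its value.

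Aacs encodes acetoacetyl-CoA synthetase, which feeds ketone bodies into cytosolic lipid synthesis. It was at 13.3, 22.7 and 18.0 TPM in IR+NMN libraries, 19.8, 15.8 and 14.8 TPM in IR libraries, and 31.8, 21.7 and 20.6 TPM in Sham libraries. IR lay below Sham without overlap, and IR+NMN 2 fell within the Sham range. The log2 change was -0.51 in IR against Sham (95% interval -1.03 to 0.00, adjusted p = 0.178 by limma) and -0.44 in IR+NMN against Sham (-0.96 to 0.08, adjusted p = 0.231).

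Apoe encodes the main apolipoprotein of brain and was by far the most abundant of the 8 genes. It was at 2044, 2863 and 2015 TPM in IR+NMN libraries, 2886, 3074 and 3827 TPM in IR libraries, and 4291, 4241 and 4337 TPM in Sham libraries. The levels were ordered IR+NMN below IR below Sham with no overlap, although IR+NMN 2 and IR 1 differed by less than the SD of either group. The means were 2307 ± 481 TPM in IR+NMN, 3262 ± 498 TPM in IR and 4290 ± 48.0 TPM in Sham (SD, n = 3 each), so IR+NMN stood at 0.538 times and IR at 0.761 times the Sham mean. Apoe fell in IR+NMN against Sham, by 0.91 on the log2 scale (SE 0.18, adjusted p = 0.0159 by limma), or -0.77 relative to the median of all genes. In IR against Sham the log2 change was -0.41 (SE 0.18, adjusted p = 0.171), and in IR+NMN against IR it was -0.51 (SE 0.18, adjusted p = 0.214), and neither passed. So neighbours in the order were not told apart by the fit, while its ends were.

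The Apoe call in IR+NMN against Sham was lost without Sham 2 (adjusted p = 0.0641 by limma), Sham 3 (0.0531), IR+NMN 1 (0.0513) or IR+NMN 3 (0.0717). Without both IR 1 and IR+NMN 2, the change in IR+NMN against IR was -0.76 with an adjusted p of 0.0483 by limma. For Apoe, IR 1 was the lowest IR library and IR+NMN 2 the highest IR+NMN library. Leaving out both could only widen the gap, so that value is no support for a difference. The symbol has 59 transcript rows, 32 of them above 1 TPM on average, and the highest held 87.2% of the TPM.

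Abca1 encodes the transporter that hands cholesterol and phospholipid to ApoE particles. It was at 3.19, 6.99 and 3.10 TPM in IR+NMN libraries, 5.16, 3.21 and 3.83 TPM in IR libraries, and 13.2, 15.3 and 11.3 TPM in Sham libraries. Every MCAO library lay below every Sham library, with IR+NMN 2 the highest of the MCAO libraries. The means were 4.43 ± 2.22 TPM in IR+NMN, 4.07 ± 0.998 TPM in IR and 13.3 ± 1.99 TPM in Sham (SD, n = 3 each), or 0.333 times the Sham mean in IR+NMN and 0.306 times in IR. Abca1 fell by 1.5 (SE 0.27, adjusted p = 0.0207 by limma) in IR against Sham and by 1.46 (SE 0.27, adjusted p = 0.0142) in IR+NMN against Sham, on the log2(TPM + 1) scale, which understates the change of a gene at this level. Relative to the median of all genes these were -1.30 and -1.31. Between IR+NMN and IR the log2 change was 0.04 with a 95% interval of -0.57 to 0.66.

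The main Abca1 row held 58.6% of the TPM and averaged 2.36 ± 0.02 TPM in IR+NMN, 2.14 ± 0.24 TPM in IR and 8.25 ± 0.73 TPM in Sham (SD, n = 3 each). The third row, where IR+NMN 2 stands out, was at 0, 3.09 and 0 TPM in IR+NMN libraries. With the highest row in place of the sum, the adjusted p was 0.000534 in IR against Sham and 0.000591 in IR+NMN against Sham.
With summed rows, the IR against Sham call was lost without Sham 1 (adjusted p = 0.0567 by limma), Sham 2 (0.0964), Sham 3 (0.0525), IR 2 (0.0972) or IR 3 (0.0801). The IR+NMN against Sham call was lost without Sham 2 (0.0644), IR+NMN 1 (0.0518) or IR+NMN 3 (0.0666), and when the ribosomal share entered the fit (0.0686).

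**Figure D2:**
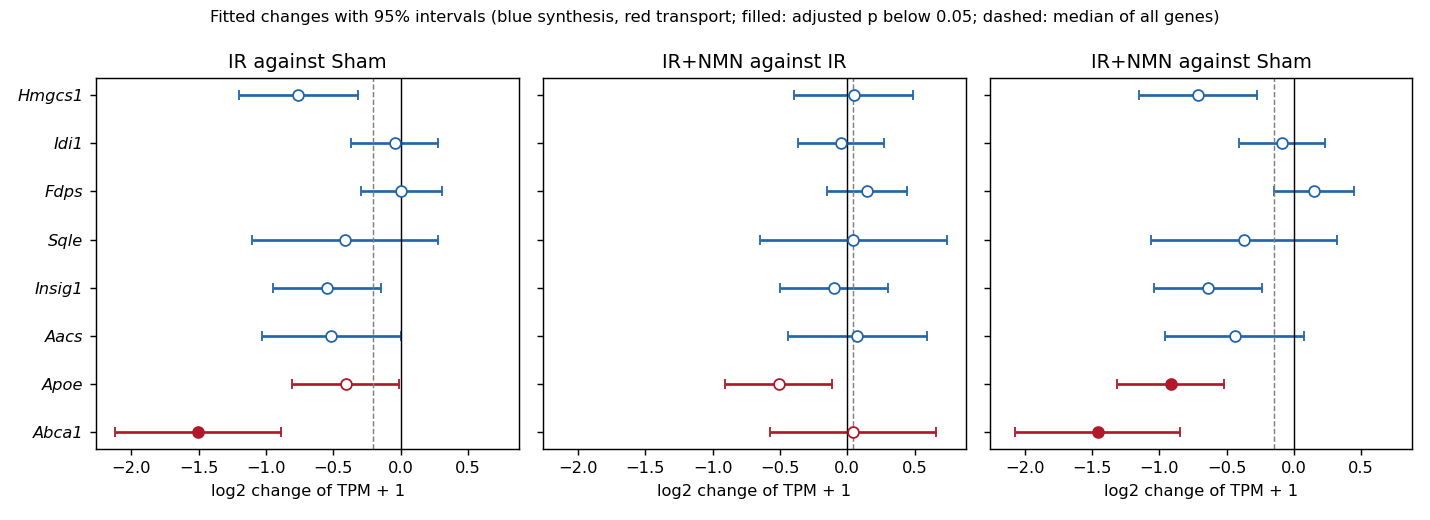
Fitted log2 change of TPM + 1 (horizontal axis) for each gene in the 3 contrasts, with 95% intervals, synthesis in blue, transport in red, filled where the adjusted p is under 0.05, and the median of all genes as a dashed line. Abca1 is filled in both contrasts against Sham, Apoe in IR+NMN against Sham, and no gene is filled in IR+NMN against IR.

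In IR against Sham, 1 of the 8 genes (Abca1) passed the test, lower in IR, where 6.39% of all genes tested passed and 5.26% were called lower. The IR libraries all lay below Sham for 4 of the 8 (Hmgcs1, Aacs, Apoe and Abca1), beside 26.7% of all genes. In IR+NMN against Sham, 2 of the 8 passed, both lower (Apoe and Abca1), where 10.3% of all genes passed and 6.13% were called lower, and 4 of the 8 lay below Sham without overlap (Hmgcs1, Insig1, Apoe and Abca1), beside 20.4%. Of the 6 synthesis genes, limma called 0 in either contrast, with 2 at an unadjusted p under 0.05 in each, beside 28.3% and 29.9% of all genes. Changes lay below 0 for 5 of the 6, beside 72.6% of all genes in IR against Sham and 64.8% in IR+NMN against Sham, and Idi1, 1 of these 5, turned above 0 under quantile normalization and median-of-ratios scaling. Leaving out a library moved the counts. In IR against Sham 0 of the 8 passed without Sham 1, Sham 2, Sham 3, IR 2 or IR 3, while 2 passed without IR+NMN 2 and 3 without IR 1. In IR+NMN against Sham 0 passed without Sham 2, IR+NMN 1 or IR+NMN 3 and 1 without Sham 3, while 3 passed without IR 2 or IR+NMN 2 and 4 without IR 1.

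The question that NMN adds to the design is whether treatment altered these genes after occlusion. In IR+NMN against IR limma called 0 of the 8 genes, where 2.36% of all genes passed and 0.0589% were called lower, and 1 (Apoe) had an unadjusted p under 0.05, beside 13.3% of all genes. Apoe was also the only one of the 8 whose groups did not overlap, lying lower in IR+NMN, beside 3.22% of all genes. The other 7 had log2 changes from -0.10 for Insig1 to 0.14 for Fdps. Their 95% intervals were narrowest for Fdps (-0.15 to 0.44) and widest for Sqle (-0.64 to 0.74), and differences inside these bounds could not be resolved.

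Set against each other in each library, synthesis and transport shifted unevenly. The mean log2(TPM + 1) of the 6 synthesis genes minus that of the 2 transport genes was -1.06, -1.71 and -0.97 in IR+NMN libraries, -1.31, -1.60 and -1.61 in IR libraries, and -1.96, -2.09 and -2.20 in Sham libraries. Every MCAO library had a difference nearer 0 than every Sham library, and IR+NMN overlapped IR. The group means were -1.25 ± 0.41 in IR+NMN, -1.51 ± 0.17 in IR and -2.08 ± 0.12 in Sham (SD, n = 3 each). The transport mean alone was 6.76 ± 0.42 in IR+NMN, 6.99 ± 0.14 in IR and 7.95 ± 0.09 in Sham. The synthesis mean alone was 5.51 ± 0.04 in IR+NMN, 5.49 ± 0.26 in IR and 5.86 ± 0.18 in Sham, where Sham 3, at 5.66, lay below IR 1, at 5.75. The difference between groups in this balance was 0.58 in IR against Sham, 0.26 in IR+NMN against IR and 0.84 in IR+NMN against Sham. Of the 2 transport genes, Apoe changed by -0.41 and Abca1 by -1.50 in IR against Sham, beside -0.38 for the synthesis mean. In IR+NMN against IR they changed by -0.51 and 0.04, beside 0.03, and in IR+NMN against Sham by -0.91 and -1.46, beside -0.35. The shift in IR against Sham thus lay mainly in Abca1, and that in IR+NMN against IR in Apoe. These are descriptions of a score over chosen genes and carry no test.

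**Figure D3:**
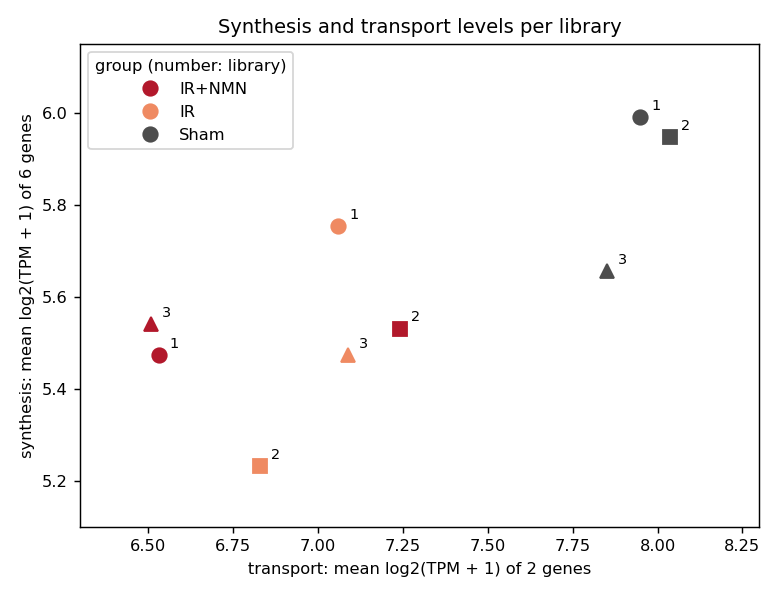
Mean log2(TPM + 1) of the 6 synthesis genes (vertical axis) against that of the 2 transport genes (horizontal axis), 1 point per library, numbered within its group; neither axis starts at 0. The Sham libraries stand apart at the right on the transport axis, while IR 1 reaches the synthesis level of Sham 3.

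Within a group the same library was often the extreme one. IR 1 was the highest of the IR libraries in 6 of the 8 genes and the lowest in the other two, Fdps and Apoe, whereas IR 2 was the lowest in 5. Sham 3 was the lowest Sham library in 6 genes, all but Fdps and Apoe. IR+NMN 2 was the highest of its group in 5 (Idi1, Insig1, Aacs, Apoe and Abca1) and the lowest in 3 (Hmgcs1, Fdps and Sqle). Over the 9 libraries the closest pair was Hmgcs1 and Insig1, whose centred log2(TPM + 1) differed by 0.13 on average, and the farthest was Fdps and Abca1, at 0.75.

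Whole tissue was sequenced, so fewer cells of a type and less RNA per cell cannot be told apart. Summed TPM of 8 astrocyte markers was 5359 to 7572 in IR+NMN, 3647 to 5926 in IR and 2747 to 3859 in Sham, with IR overlapping both other groups. Gfap, the filament of reactive astrocytes, made most of that sum in IR+NMN, at 4357 ± 259 TPM (SD, n = 3). By the test, 1 of the 8 markers, Gfap, rose in IR+NMN against Sham, where 4.21% of all genes were called higher. Without Gfap, the other 7 markers summed to 1238 to 2938 TPM in IR+NMN, 2740 to 3281 TPM in IR and 2353 to 3361 TPM in Sham, so the higher sum in IR+NMN was that of Gfap alone. The mean was lowest in IR+NMN for 5 of these 7, of which none passed the test in any contrast. Aldh1l1, an astrocyte folate enzyme, averaged 8.8 ± 3.4 TPM in IR+NMN, 12.7 ± 2.0 TPM in IR and 13.9 ± 1.8 TPM in Sham. Slc1a2, a glutamate transporter, averaged 492 ± 443 TPM in IR+NMN, 664 ± 460 TPM in IR and 768 ± 447 TPM in Sham. Slc1a3, another glutamate transporter, averaged 188 ± 82 TPM in IR+NMN, 234 ± 34 TPM in IR and 262 ± 65 TPM in Sham. Gja1, a gap junction protein of astrocytes, averaged 173 ± 115 TPM in IR+NMN, 263 ± 81 TPM in IR and 247 ± 72 TPM in Sham (SD, n = 3 each). The libraries of the groups overlapped for each of these 4. S100b, a calcium-binding protein, was the exception among the 7, with the IR+NMN libraries below those of both other groups, and was at 717 to 1267 TPM in IR+NMN, 1392 to 2005 TPM in IR and 1498 to 1685 TPM in Sham. For the other 2 of the 7, Aqp4 and Sox9, the mean was lowest in Sham, and the groups overlapped. Aqp4 averaged 31.9 ± 31.1 TPM in IR+NMN, 34.7 ± 18.6 TPM in IR and 18.7 ± 19.9 TPM in Sham. Sox9 averaged 5.85 ± 1.92 TPM in IR+NMN, 5.89 ± 2.04 TPM in IR and 5.77 ± 1.33 TPM in Sham (SD, n = 3 each). Aqp4 was listed at 0 in Sham 3, and no marker was at 0 in all libraries.

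Over all genes, 5.26% were called lower in IR against Sham and 2.3% higher in IR+NMN against IR. In IR+NMN against Sham, 4.21% of all genes were called higher and 6.13% lower. Microglia markers (7) summed to 229 to 274 TPM in IR+NMN, 234 to 238 TPM in IR and 258 to 284 TPM in Sham. The test called 1 of the 7 higher and 2 lower in IR+NMN against Sham, and 1 higher in IR+NMN against IR. Lipid-laden phagocyte markers (6, of which 5 were tested) summed to 89.6 to 882 TPM in IR+NMN, 12.7 to 34.1 TPM in IR and 10.3 to 14.5 TPM in Sham, with no overlap between IR+NMN and either other group. Msr1, a scavenger receptor, reached 1 TPM only in IR+NMN and so passed the filter on low values through that group alone; of the other 4 tested, 3 rose in IR+NMN against Sham (Gpnmb, Lgals3 and Spp1) and 2 in IR+NMN against IR (Lgals3 and Spp1). Oligodendrocyte markers (7) summed to 3477 to 8808 TPM in IR+NMN, 3975 to 7511 TPM in IR and 5732 to 12557 TPM in Sham, with 1 called lower in each contrast against Sham. Neuron markers (6) summed to 3021 to 3783 TPM in IR+NMN, 3317 to 5318 TPM in IR and 4105 to 5210 TPM in Sham, with 1 called lower in IR+NMN against Sham. Endothelial markers (5) summed to 79.7 to 114 TPM in IR+NMN, 82.4 to 102 TPM in IR and 119 to 165 TPM in Sham, with 2 called lower against Sham in each MCAO group. All 5 red blood cell markers fell in both contrasts against Sham, summing to 823 to 1010 TPM in IR+NMN, 730 to 899 TPM in IR and 4075 to 9330 TPM in Sham. Choroid plexus markers (4, of which 2 were tested) summed to 5.58 to 8.23 TPM in IR+NMN, 2.11 to 3.82 TPM in IR and 26.4 to 43.8 TPM in Sham. Of the 2 tested, 1 was called lower in each contrast against Sham, and 1 was called higher in IR+NMN against IR. The part of these cell types in the levels of Apoe, Abca1 and the synthesis genes was not tested.

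No call fell on the rest of the synthesis pathway. Of 18 further enzymes, limma called 0 in IR against Sham, 0 in IR+NMN against IR and 0 in IR+NMN against Sham. In these contrasts 3, 1 and 4 had an unadjusted p under 0.05, beside 28.3%, 13.3% and 29.9% of all genes. The median log2 changes of the 18 were -0.27, 0.03 and -0.18. For the 6 synthesis genes they were -0.46, 0.05 and -0.40, and for all genes -0.21, 0.04 and -0.14. The medians of both lists in IR+NMN against IR turned below 0 under quantile normalization and median-of-ratios scaling. Mvd, which makes isopentenyl diphosphate, averaged 23.9 ± 1.12 TPM in IR+NMN, 24.0 ± 4.64 TPM in IR and 32.4 ± 2.13 TPM in Sham (SD, n = 3 each), and like Hmgcs1 lay below Sham in every MCAO library. Dhcr7, the last reductase before cholesterol, averaged 14.2 ± 1.38 TPM in IR+NMN, 13.8 ± 3.51 TPM in IR and 20.2 ± 2.87 TPM in Sham, and passed in IR against Sham only without IR 1 (adjusted p = 0.0356 by limma) or without both IR 1 and IR+NMN 2. Lbr, a sterol reductase of the nuclear envelope, averaged 8.17 ± 1.79 TPM in IR+NMN, 5.67 ± 0.76 TPM in IR and 7.81 ± 1.49 TPM in Sham, and did not pass in any contrast.

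**Figure D4:**
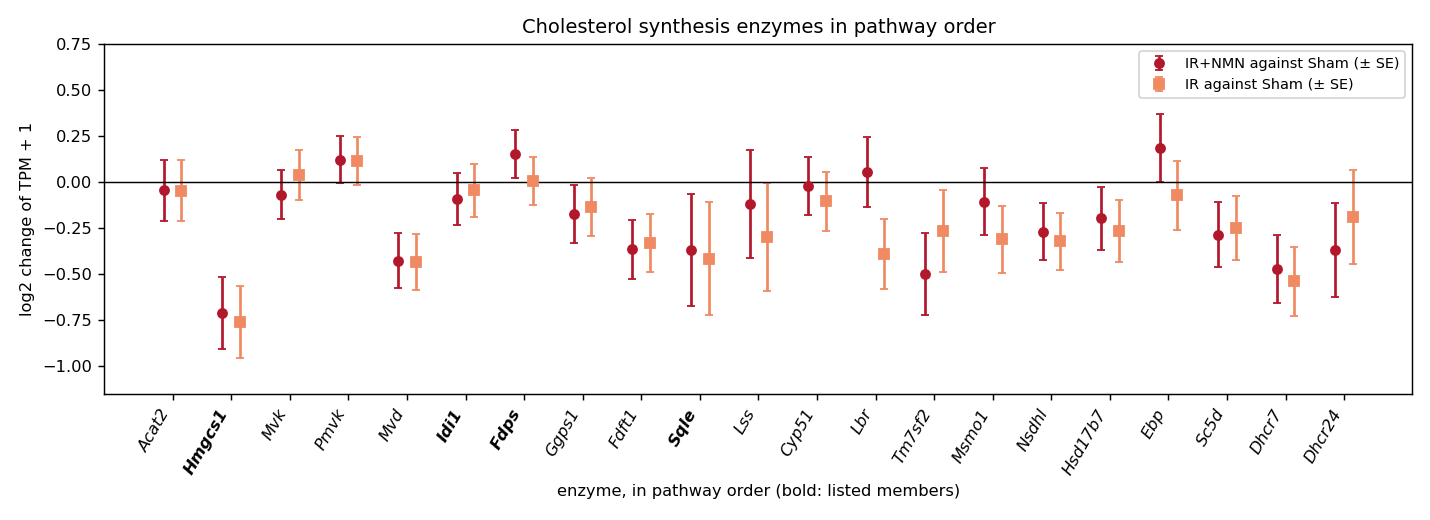
Fitted log2 change of TPM + 1 (vertical axis, ± SE) of cholesterol synthesis enzymes in pathway order (horizontal axis), in IR+NMN against Sham and IR against Sham, which share the Sham libraries. Hmgcs1, near the entry to the pathway, lies lowest of the enzymes plotted, at -0.71 in IR+NMN against Sham and -0.76 in IR against Sham, while Idi1 and Fdps lie near 0.

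Of the 12 genes listed for SREBP control and sterol uptake, 10 were tested. Over all genes, 28.3% had an unadjusted p under 0.05 in IR against Sham and 13.3% in IR+NMN against IR. In IR+NMN against Sham 6.13% of all genes were called lower. Of the 10, limma called 0 in IR against Sham (4 at an unadjusted p under 0.05) and 0 in IR+NMN against IR (0 at that p). In IR+NMN against Sham it called 1, lower. That gene was Srebf1, encoding SREBP-1, at 6.57, 19.3 and 9.52 TPM in IR+NMN libraries, 21.8, 12.8 and 15.1 TPM in IR libraries, and 34.2, 33.6 and 22.2 TPM in Sham libraries, a log2 change of -1.38 (adjusted p = 0.0428 by limma) that was lost in 12 of 21 alternatives. Among these were leaving out Sham 1, 2 or 3, IR 2 or 3, or IR+NMN 1 or 3 (adjusted p from 0.0582 to 0.147). The median log2 changes of the list were -0.35, 0.02 and -0.35, the middle one turning below 0 under quantile normalization and median-of-ratios scaling. Mbtps1, the protease that cuts SREBP, averaged 32.5 ± 9.65 TPM in IR+NMN, 28.9 ± 5.48 TPM in IR and 43.5 ± 7.15 TPM in Sham. Mylip, which degrades the LDL receptor, averaged 12.3 ± 2.55 TPM in IR+NMN, 12.1 ± 1.06 TPM in IR and 16.2 ± 0.50 TPM in Sham (SD, n = 3 each). Neither passed with all libraries, although without IR+NMN 2 Mbtps1 (adjusted p = 0.048 by limma) and Mylip (0.0198) did in IR+NMN against Sham.

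Around Apoe and Abca1, 22 of 24 listed genes of lipoprotein and sterol handling were tested, and Pltp and Lrp8 were not analysed here. In IR against Sham 1 fell (Npc2), in IR+NMN against IR 1 rose (Ch25h), and in IR+NMN against Sham 2 rose (Ch25h and Nr1h3) and 3 fell (Npc2, Abca7 and Cyp46a1). Over all genes 1.14%, 2.3% and 4.21% were called higher in these contrasts, and 5.26%, 0.0589% and 6.13% were called lower. The median log2 changes of the list were -0.44, 0.03 and -0.45, the middle one again turning below 0 under those scalings. Nr1h3 encodes LXR alpha, an activator of Abca1 and Apoe transcription. It was at 6.10, 5.99 and 6.06 TPM in IR+NMN libraries, 4.52, 4.19 and 3.07 TPM in IR libraries, and 2.31, 3.14 and 2.78 TPM in Sham libraries. IR+NMN lay above both other groups without overlap, while IR overlapped Sham. The log2 change of Nr1h3 in IR+NMN against Sham was 0.92 (SE 0.16, adjusted p = 0.0102 by limma) and passed in all 21 alternatives. In that contrast Abca1 fell, whereas in IR+NMN against IR the log2 change of Abca1 was 0.04.

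Ch25h makes an oxysterol from cholesterol in activated macrophages and microglia. It was at 21.3, 4.19 and 20.1 TPM in IR+NMN libraries, 1.74, 1.23 and 1.38 TPM in IR libraries, and 1.81, 1.87 and 3.59 TPM in Sham libraries, with IR+NMN 2 far below the other two of its group. The log2 change was 2.46 in IR+NMN against IR (adjusted p = 0.0426 by limma) and 2.02 in IR+NMN against Sham (adjusted p = 0.0394). The first call was lost in 14 alternatives, among them leaving out any library except IR+NMN 2 (adjusted p from 0.0511 to 0.204). The second was lost in 9, among them leaving out any library except IR 1 and IR+NMN 2 (0.0607 to 0.143).

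Abca7, a lipid transporter related to Abca1, averaged 3.85 ± 0.35 TPM in IR+NMN, 4.97 ± 1.78 TPM in IR and 8.59 ± 1.69 TPM in Sham (SD, n = 3 each; adjusted p = 0.0272 by limma in IR+NMN against Sham). That call was lost without Sham 2 or 3 or IR+NMN 1 or 3 (0.0748 to 0.112), and without IR 1 Abca7 also passed in IR against Sham (0.0273). Cyp46a1, the neuronal enzyme that turns cholesterol into an exportable oxysterol, averaged 100.3 ± 24.0 TPM in IR+NMN, 113 ± 14.8 TPM in IR and 154 ± 9.18 TPM in Sham (SD, n = 3 each; adjusted p = 0.0476 by limma in IR+NMN against Sham). Its call was lost in 13 of 21 alternatives, among them leaving out any library except IR 1 and IR+NMN 2 (0.0611 to 0.165). Npc2, which carries cholesterol out of lysosomes, had log2 changes of -0.78 in IR against Sham (adjusted p = 0.0084 by limma) and -0.75 in IR+NMN against Sham (adjusted p = 0.0057). That difference sits in 1 transcript row, which was at 43.8 to 55.0 TPM in Sham libraries and at most at 1.08 TPM in any MCAO library. With the highest row in place of the sum, the adjusted p for Npc2 was 0.846 in IR against Sham and 0.828 in IR+NMN against Sham, and with median-of-ratios scaling it was 0.0664 in IR against Sham.

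Fatty acid synthesis shares SREBP control with the cholesterol enzymes, and Aacs supplies both. Acacb, the mitochondrial acetyl-CoA carboxylase, reached 1 TPM in the Sham libraries alone, so it passed the filter on low values only through the group where it was high, and its call is no support for a change of the list. Of the other 11 genes limma called 0 in IR against Sham (2 at an unadjusted p under 0.05), 0 in IR+NMN against IR (0 at that p) and 0 in IR+NMN against Sham (2 at that p). Their median log2 changes were -0.30 in IR against Sham, -0.03 in IR+NMN against IR and -0.41 in IR+NMN against Sham. Over all genes 28.3%, 13.3% and 29.9% had an unadjusted p under 0.05 in these contrasts. Acacb was at 0.31 ± 0.18 TPM in IR+NMN, 0.57 ± 0.09 TPM in IR and 1.40 ± 0.28 TPM in Sham (SD, n = 3 each; adjusted p = 0.0125 by limma). Its call was lost without Sham 2 (0.0536), IR+NMN 1 (0.0522) or IR+NMN 3 (0.0626), and without IR+NMN 2 it also passed in IR against Sham (0.0371). Fasn, the fatty acid synthase, averaged 64.9 ± 12.2 TPM in IR+NMN, 55.8 ± 11.9 TPM in IR and 86.3 ± 11.3 TPM in Sham, and passed in IR against Sham without IR 1 (0.0416) but not with all libraries. Elovl6, an elongase, averaged 7.78 ± 1.30 TPM in IR+NMN, 8.10 ± 2.75 TPM in IR and 12 ± 1.55 TPM in Sham, and likewise passed in IR against Sham only when IR 1 was left out (0.0369 without it alone). Fads2, a desaturase, averaged 80.9 ± 21.0 TPM in IR+NMN, 101 ± 18.6 TPM in IR and 124 ± 19.5 TPM in Sham, and passed in IR+NMN against Sham only when IR+NMN 2 was left out (0.0226 without it alone).

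Ketone body use meets Hmgcs1 and Aacs at acetoacetyl-CoA. Acat1, the mitochondrial thiolase, was at 41.0, 48.7 and 41.3 TPM in IR+NMN libraries, 43.3, 43.5 and 43.7 TPM in IR libraries, and 107, 94.6 and 92.4 TPM in Sham libraries. It fell by 1.15 in each MCAO group on the log2 scale (adjusted p = 0.0015 by limma in IR against Sham and 0.0012 in IR+NMN against Sham) and passed in all 21 alternatives. Bdh1, which interconverts the ketone bodies, averaged 26.0 ± 6.79 TPM in IR+NMN, 28.9 ± 4.71 TPM in IR and 35.7 ± 3.84 TPM in Sham and did not pass, except in IR+NMN against Sham without IR+NMN 2 (0.0251) and, in both contrasts against Sham, without IR 1 and IR+NMN 2 together. In IR+NMN against IR limma called 0 of the 5 ketone body genes, with 0 at an unadjusted p under 0.05, beside 13.3% of all genes.

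Among 6998 genes averaging at least 10 TPM, those whose centred log2(TPM + 1) lay nearest the mean of the 6 synthesis genes over the 9 libraries were Nsdhl, itself a cholesterol synthesis enzyme, with a mean absolute difference of 0.04, then Rangap1, Pigt, Ppp2r1a and Ercc3, beside a median of 0.22 over the candidates. Nearest to Apoe were Serpine2 at 0.08, Glud1, Pde2a, Pxmp2 and Ankrd13d, beside a median of 0.37. Nearest to Abca1 were Tnrc6c at 0.16, Ninj2, Tmem164 and Slc6a9, beside a median of 0.62. Serpine2 averaged 76.0 ± 24.7 TPM in IR+NMN, 109 ± 22.0 TPM in IR and 146 ± 4.41 TPM in Sham, and Ninj2 averaged 5.36 ± 1.67 TPM in IR+NMN, 6.32 ± 1.02 TPM in IR and 19.1 ± 4.68 TPM in Sham (SD, n = 3 each).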

How the data were processed

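RNA from rat brain was sequenced in 9 libraries, 3 each of IR+NMN, IR and Sham. The deposited table holds TPM estimated by the authors, and each library sums to 1000000 over 131003 rows. STAR, Cufflinks and the build hg38 are named, without versions, per the submitters' processing notes; hg38 is a human build, and how rows were annotated or reads split among near-identical copies is not given in the sources used here. Of the rows, 27683 carry a symbol, and these were summed per symbol.

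limma 3.58.1 in R 4.3.3, with trend and robust moderation, was fitted to log2(TPM + 1) of the 10180 genes reaching 1 TPM in 3 or more of the 9 libraries, with 1 mean per group and 6 residual degrees of freedom. Tests were two-sided, with Benjamini-Hochberg adjustment within each contrast and a threshold of 0.05. The code was tested on simulated data. The genes, lists and tests were chosen with earlier results of these data known. Named were all 8 genes, from each list those past the threshold and the 4 with the smallest p in any contrast, and the 5 genes nearest each likeness pattern. Promoters were searched with Python 3.11.15. The 21 alternatives changed the pseudocount (0.1 or 5), the filter, the scaling, the row used, the moderation, the libraries, a replicate block or a ribosomal protein covariate. Some genes that this rule names are not reported here.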

Additional observations from a re-analysis of the deposited data

How the results depend on the processing

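Of 504 values for single genes, 471 stayed on their side of the threshold, 18 newly passed and 15 no longer passed. The sign turned in 40, for 7 of the 8 genes (Apoe excepted), and none of these passed the threshold with or without the alternative. The number of the 8 genes called ranged from 0 to 3 in IR against Sham, 0 to 0 in IR+NMN against IR and 0 to 4 in IR+NMN against Sham when 1 library was left out, the highest without IR 1. Without IR 1 and IR+NMN 2 together it was 3, 1 and 4, the 1 being Apoe, whose 2 groups lie closest at these libraries. In IR+NMN against Sham it was 4 after quantile normalization and 4 with the 2 groups alone (Hmgcs1, Insig1, Apoe and Abca1 in both), and 1 (Apoe) with the ribosomal protein covariate. With the replicate block it was 0 in IR against Sham and 1 (Abca1) in IR+NMN against Sham, where Apoe had an adjusted p of 0.0511 by limma; Abca1 had 0.0611 in IR against Sham. Same-numbered libraries did not deviate together throughout (r from -0.57 to 0.49 over 9 pairs, 3 above 0.1, 2 libraries closest to their own number). IR 1 with Sham 1 had an r of 0.40, and IR 3 with Sham 3 had 0.49. Deviations from a mean of 3 libraries constrain these values, so they cannot exclude a shared batch or a pairing. Over all genes the block left 100, 33 and 499 calls, against 651, 240 and 1053 without it. Those counts ranged from 74 to 2514, 0 to 533 and 276 to 2989 over all alternatives, the highest without IR 1 and IR+NMN 2 and the lowest without IR 2 (first contrast) or IR+NMN 3 (last), the second reaching 0 without IR 2 or IR 3 and without IR+NMN 1 or 3. The synthesis minus transport balance stayed between 0.37 and 0.69, 0.17 and 0.31, and 0.63 and 1.0. The causes were not tested. Depth is unknown, and 3 libraries a group limit the precision.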
